A study of Mus musculus with 2 samples.

Results

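The interferon pathway was followed in retinal microglia through 46 genes chosen for their known roles: the receptor chains and Janus kinases, STAT2 with 4 interferon regulatory factors (IRFs), and 34 induced effectors. The deposited table listed 43 of them among its 13549 genes, by gene symbol, and all 43 had at least 20 reads over both libraries. Rsad2, Ifi44 and Xaf1 had no row in the table used here and are not described further. The rule names genes by role and uses no measured value, but the set was drawn up with earlier results of these data known.

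The 2 groups were microglia of the mouse retina at postnatal day 5, obtained by cell sorting, and each gave 1 bulk RNA library. Both carried CD11c-Cre-gfp, in which the promoter of the integrin gene for CD11c drives a green Cre recombinase, together with Rosa-TDTom, a red reporter that stays on once Cre has acted. The Cd11c-active library came from 4041 cells positive for GFP and TdTom, and the Cd11c-lineage library from 5441 cells positive for TdTom alone. All cells came from the same 8 retinas (4 female and 4 male), the labels name no treatment besides the sort, and both gates required TdTom, so cells without a history of the promoter are outside both. The comparison asks how cells using the CD11c promoter at sorting differ from cells that had used it earlier. With a single library per group no difference below has a replicate check, no p-value is given, and every ratio compares these libraries and not the conditions.

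Interferons are secreted alarm proteins. Type I interferon binds the IFNAR1 and IFNAR2 chains and type II interferon binds IFNGR1 and IFNGR2. The Janus kinases JAK1, JAK2 and TYK2 sit on these chains and phosphorylate STAT proteins, and a complex that holds STAT2 and IRF9 binds a DNA element in front of many antiviral genes. Microglia keep the receptors and sensors at hand at rest, and a subset with strongly induced antiviral genes is known from the developing and the injured brain.

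The libraries held 12943998 and 13402625 reads, of which the 43 genes took 0.287% (Cd11c-active) and 0.324% (Cd11c-lineage). Ratios are log2 values with Cd11c-active in the numerator, scaled with TMM, which raises every ratio by 0.14 against scaling to library totals, and the median over the 13037 genes with at least 20 reads was 0.01. Ratios of single genes are given with a 95% counting interval, unless stated against a floor of reads, and, where a result turns on it, with a widened interval from reads divided by the overdispersion. That is the variance of the log2 ratio between the libraries over the counting variance in genes with similar reads, and it was 84.9 to 152 from 200 reads up. The 8 microglial marker genes, all present, summed to 269665 and 287673 reads (log2 ratio 0.09). In Cd11c-active, 8 of 8 endothelial markers were higher and 4 of 5 border macrophage markers were lower. Of all genes with at least 20 reads, 50.2% had a log2 ratio above 0 and 49.8% below. In bulk RNA, fewer cells of a type and less RNA per cell cannot be told apart.

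The DNA element found in front of many antiviral genes was looked for in the promoters of the members. The interferon-stimulated response element was searched as GAAA, any 2 bases and GAAA again, on both strands, overlaps included, in RefSeq promoter windows (GRCm38.p6) of 250 bases before and 50 bases from the start of each gene on. Windows were found for 38 of the 46 genes. A match stood in the windows of 15 of 26 effectors (57.7%), in 1 of 12 receptors, kinases and regulators (8.33%, Stat2) and in 3.99% of all 27025 genes with a window. The stretches below belong to effectors that lay on opposite sides of the comparison, with the matches in capitals, written 5′ to 3′ on the strand of the gene. Those of Ifit3, Oas1a, Ifitm2 and Ifi207 touch the span of another transcript of the gene and are limited to 30 bases around the first match, which leaves out the second match of Ifit3 and holds both of Oas1a.
Isg15 (chr4:156200863-156200908, minus strand): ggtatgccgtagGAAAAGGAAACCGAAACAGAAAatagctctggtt
Ifit1 (chr19:34640773-34640825, plus strand): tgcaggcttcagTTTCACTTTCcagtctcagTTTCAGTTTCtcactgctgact
Bst2 (chr8:71537575-71537614, minus strand): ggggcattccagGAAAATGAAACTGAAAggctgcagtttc
Ifi207 (chr1:173741831-173741860, minus strand): cctagccaggGAAATCGAAAattaagaaca
Ifit3 (chr19:34583363-34583392, plus strand): cagtggtaagTTTCACTTTCctcttctggt
Oas1a (chr5:120907526-120907555, minus strand): cccttctcggGAAATGGAAACTGAAAatct
Ifitm2 (chr7:140955988-140956017, minus strand): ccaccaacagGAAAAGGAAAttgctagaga
Cxcl10 (chr5:92349081-92349114, minus strand): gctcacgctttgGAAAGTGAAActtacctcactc
Isg15, Ifit1, Bst2 and Ifi207 had lower CPM (counts scaled to library size) in Cd11c-active, and Ifit3, Oas1a, Ifitm2 and Cxcl10 had higher CPM. The Isg15 stretch carries 3 overlapping matches on the strand of the gene, and the Ifit1 stretch carries 2 separate ones on the opposite strand. Of the 14 effectors with a match and a row in the table, 6 had a log2 ratio above 0 and 8 below, with a median of -0.34. Of all genes with at least 20 reads, 50.2% were above and 49.8% below. Of the 9 with a window and no match, 3 were above and 6 below, with a median of -0.17. With a match, 5 were at least 2-fold higher and 4 lower, and without a match 0 and 1, against 23.3% and 21.6% of all genes. Median reads were 656 with a match and 2253 without, so these sets differ in depth and their ratios are not compared. A match describes these letters and is not evidence of binding, and genes with it stood on both sides. The gamma-activated element, searched as TTCNNNGAA, matched the windows of 11 of 38 members (28.9%) against 9.55% of all genes, and those included the type I receptor genes Ifnar1 and Ifnar2 and the regulator Irf1.

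All 4 interferon receptor chains were measured well in both libraries, and all 4 ratios were above 0, as were 50.2% of all genes with at least 20 reads. In this order of libraries and intervals, which holds throughout, Ifngr1, the ligand-binding chain for type II interferon, had 5609 Cd11c-active and 5063 Cd11c-lineage reads, and its log2 ratio was 0.33 (0.28 to 0.39, widened -0.38 to 1.06). Its level per kilobase of transcript was 215 CPM in Cd11c-active and 171 CPM in Cd11c-lineage, the highest of the receptor chains in either library. Ifngr2, its signalling partner, had 1917 and 1317 reads and a log2 ratio of 0.73 (0.63 to 0.83, widened -0.40 to 1.91). Among the 500 genes closest to Ifngr2 in reads, that ratio was at percentile 92.4. The libraries thus differed more at Ifngr2 than at the other receptor chains, and its widened interval still included 0.

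The type I chains were nearly level between the libraries. Ifnar1, which carries TYK2, had 1661 and 1678 reads and a log2 ratio of 0.17 (0.07 to 0.27, widened -0.94 to 1.28). Ifnar2, the chain with the higher affinity for ligand, had 1096 and 1146 reads and a log2 ratio of 0.12 (0.00 to 0.24, widened -1.12 to 1.36). Scaled to library totals, Ifnar2 turned to -0.01. Per kilobase, Ifnar1 stood at 34.4 and 30.6 CPM and Ifnar2 at 29.1 and 26.8 CPM, beside 41.9 and 25.3 CPM for Ifngr2. The order of Ifngr2, Ifnar1 and Ifnar2 therefore differed between the libraries, and their widened intervals overlap. Summed, the 4 chains gave 10283 and 9204 reads, a log2 ratio of 0.35 (0.31 to 0.39, widened -0.13 to 0.83).

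The 3 Janus kinases had ratios slightly below 0. Jak1, shared by both receptor types, had 4430 and 5780 reads and a log2 ratio of -0.20 (-0.25 to -0.14, widened -0.95 to 0.54). Its level per kilobase was 73.1 and 83.9 CPM, above those of the other kinases. Jak2, the partner of the type II receptor, had 865 and 1077 reads and a log2 ratio of -0.13 (-0.26 to 0.00076), and Tyk2 had 652 and 825 reads and -0.15 (-0.30 to -0.0030). Removing a trend with transcript length and GC content moved Jak2 to 0.01. The widened interval of the summed kinase reads, -0.79 to 0.41 around a log2 ratio of -0.18, included 0.

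**Figure D1:**
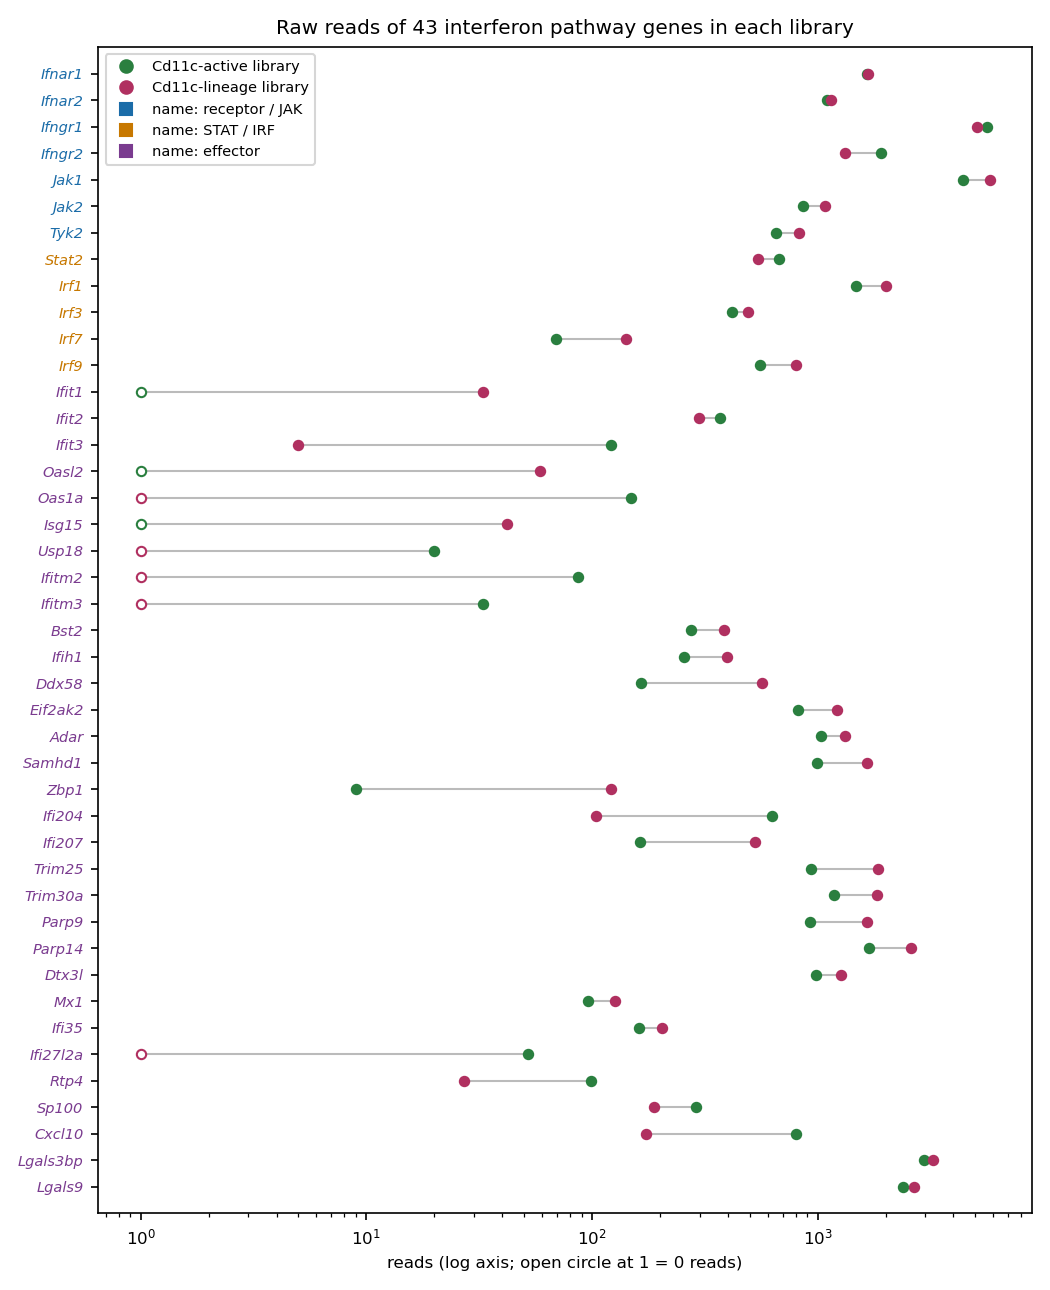
Raw reads (log axis) of the 43 listed genes, 1 row per gene, with a green point for the Cd11c-active library and a red point for the Cd11c-lineage library, not scaled for library size. Open circles placed at 1 stand for 0 reads. Receptors, kinases and regulators have 69 reads or more in both libraries, and the 8 genes with an open circle are all effectors.

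The regulators were present in both libraries, and 4 of 5 had a log2 ratio below 0, against 49.8% of all genes with at least 20 reads. Irf1, a transcription factor that responds early to type II interferon, had 1481 and 2015 reads and a log2 ratio of -0.26 (-0.36 to -0.16, widened -1.38 to 0.82). It also had the highest level of the 5 per kilobase, 56.1 and 67.1 CPM. Irf9, the DNA-binding subunit of the complex with STAT2, had 554 and 799 reads and a log2 ratio of -0.34 (-0.50 to -0.18, widened -2.04 to 1.26). Irf3, which is activated by nucleic acid sensors and not by interferon itself, had 418 and 490 reads and was nearly level at -0.04 (-0.23 to 0.15). Stat2 was the regulator above 0, with 671 and 545 reads and a log2 ratio of 0.49 (0.32 to 0.65, widened -1.22 to 2.25).

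Irf7, which amplifies type I interferon production and is itself induced by interferon, had the lowest level of the regulators. Its reads were 69 and 142, and its levels 1.73 and 3.12 CPM per kilobase. Its log2 ratio was -0.85 (-1.29 to -0.43), at percentile 37.0 of its 500 nearest genes, so differences of this size were common at its depth. Trend removal took the ratio to -1.02, past 2-fold. Over the 5 regulators the sums were 3193 and 3991 reads, a log2 ratio of -0.14 (-0.20 to -0.07, widened -0.84 to 0.56), and the median of single ratios was -0.26.

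The induced effectors pointed both ways, and how far a gene lay from 0 followed its number of reads. Of 31 effectors, 9 were at least 2-fold higher in Cd11c-active, against 23.3% of all genes with at least 20 reads, and 6 were at least 2-fold lower, against 21.6%. Among the 11 effectors with 20 to under 200 reads, 7 were at least 2-fold higher and 4 lower, where 43.3% and 42.3% of all genes with so few reads were. Among the 10 with 200 to under 1000 reads, 2 were higher and 2 lower, against 23.3% and 20.8%. Of the 10 with at least 1000 reads, 0 passed 2-fold in either direction, against 5.43% higher and 4.14% lower among all genes of that depth. These shares give no evidence of more change in either direction than the table as a whole shows. Summed over all 31, effectors had 17674 and 22577 reads and a log2 ratio of -0.17 (-0.20 to -0.14, widened -0.45 to 0.12), with a median of -0.17. Scaled to library totals, that sum was at -0.30 and its widened interval, -0.59 to -0.02, lay below 0. In that scaling the median over all genes with at least 20 reads was -0.13, which lies inside this interval.

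**Figure D2:**
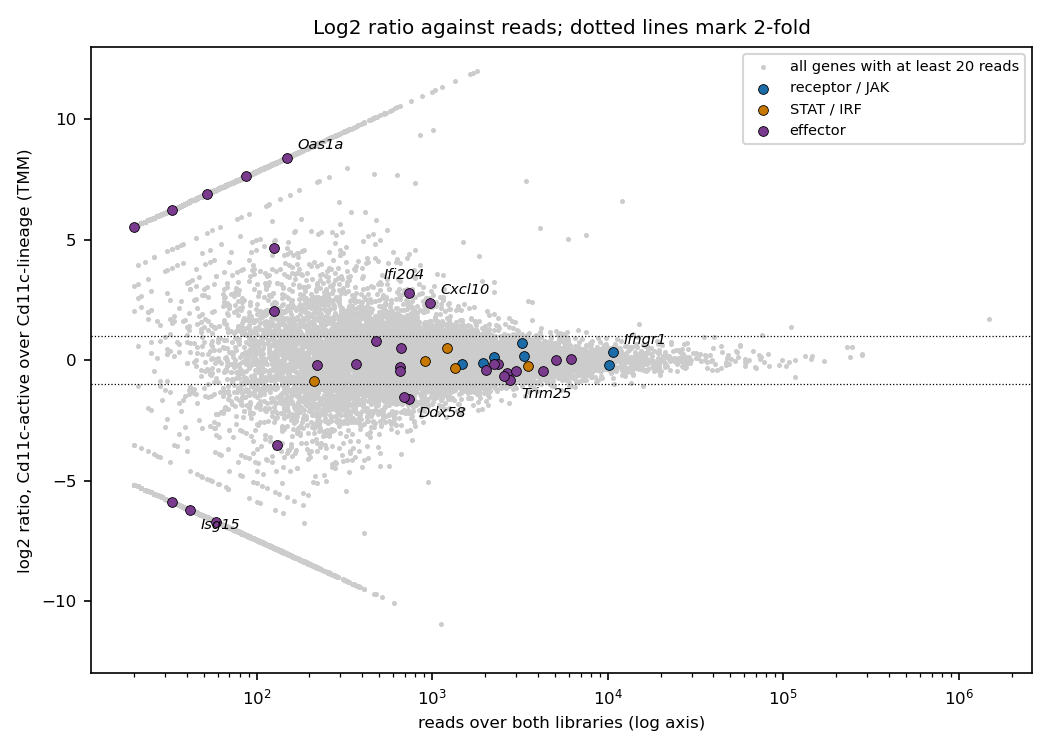
Log2 ratio of Cd11c-active over Cd11c-lineage (vertical) against reads over both libraries (horizontal, log axis) for all 13037 genes with at least 20 reads in grey and the 43 members in colour by role, with dotted lines at 2-fold. The diagonal lines of points are genes with 0 reads in one library, whose ratio depends on the 0.5 reads added. Most members with under 200 reads lie on these lines, while Rtp4, Zbp1 and Ifit3 have reads in both libraries and lie off them. Members with at least 1000 reads stay within 2-fold.

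Cxcl10 and Ifi204 were the members with the clearest difference, and both were higher in Cd11c-active. Cxcl10, a secreted chemokine that draws T cells, had 798 and 174 reads, which is 64.6 and 12.4 CPM. Its log2 ratio was 2.38 (2.15 to 2.63, widened 0.14 to 5.59), at percentile 98.0 of its 500 nearest genes. Ifi204, of the p200 family of nuclear proteins linked to DNA sensing, had 631 and 104 reads, or 51.1 and 7.40 CPM. The log2 ratio of Ifi204 was 2.78 (2.49 to 3.10, widened 0.03 to 7.48), at percentile 97.8. These were the 2 members of 43 whose widened interval lay above 0, where 1.47% of all genes with at least 20 reads did, and 0 members had one below 0, against 0.391%. With library totals the lower end of the widened interval fell to -0.11 for Ifi204, which then included 0, and to 0.005 for Cxcl10. The overdispersion used for Ifi204 came from genes with more reads, and genes with 400 to 799 reads gave 88.5. A larger value widens the interval, so the lower end of 0.03 for Ifi204 is not firmly above 0.

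Ifi207, a close relative that lies beside Ifi204 on chromosome 1, went the other way. It had 163 and 530 reads, a log2 ratio of -1.51 (-1.78 to -1.26, widened -4.95 to 0.98) at percentile 5.4. Members of this family are similar in sequence, and how reads matching several of them were assigned is not given in the sources used here. Added together, Ifi204 and Ifi207 had 794 and 634 reads and a log2 ratio of 0.51 (0.36 to 0.66, widened -1.04 to 2.12). The difference at Ifi204 alone was thus larger than that of the pair. Ifi209, another relative, had 121 and 0 reads.

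Endothelial markers moved with Cxcl10 and Ifi204. The 8 markers summed to 7974 and 1035 reads (646 and 73.7 CPM), with Cldn5, Flt1, Tek, Plvap and Esam at 0 in Cd11c-lineage, and 4 of 4 pericyte markers were also at 0 there (395 reads against 0). Border macrophage markers stood the other way, with 297 and 1794 summed reads (24.1 and 128 CPM) over the 5 of 6 listed, Lyve1, Cd163 and F13a1 at 0 in Cd11c-active and Ccr2 at 0 in Cd11c-lineage. Their part in these results was not tested.

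Effectors with 0 reads in one library stood on both sides, and 3 of them had 0 reads in Cd11c-active. Isg15, a ubiquitin-like protein attached to other proteins, had 0 and 42 reads, at least 12.3-fold lower over a floor of 3 reads per library. Ifit1, which blocks translation of viral RNA, had 0 and 33 reads, at least 9.67-fold lower. Oasl2, a relative of the oligoadenylate synthetases, had 0 and 59, at least 17.3-fold lower. Each of these genes was detected in Cd11c-lineage alone.

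The converse held for 5 effectors with 0 reads in Cd11c-lineage. Oas1a, a synthetase that activates RNase L, had 149 reads in Cd11c-active, at least 56.5-fold higher. Ifitm2 and Ifitm3, membrane proteins that hinder viral entry, had 87 and 33 reads, at least 33.0-fold and 12.5-fold higher. Ifi27l2a, a small membrane protein of mitochondria, had 52 reads, at least 19.7-fold higher, and Usp18, the protease that removes ISG15 and damps the receptor, had 20 reads, at least 7.59-fold higher.

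Counts of 0 were common at this depth, so these bounds cover counting error only. Of the 11 effectors with under 200 reads, 8 had 0 reads in one library, where 63% of all genes with as many reads did. Multiplied by the overdispersion, the floor of 3 reads becomes 256 reads, and the largest of the 8 totals was the 149 reads of Oas1a. Isg15 and Usp18, which form a pair of modifier and protease, were each seen in the library where the other was not. At these counts no difference between the libraries was detectable beyond the spread among genes of the same depth. Endothelial cells also express Ifitm2 and Ifitm3, and the endothelial sums given above stood on the same side, whose part was not tested.

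Zbp1, a sensor of left-handed nucleic acid that can start cell death, had 9 and 122 reads, a log2 ratio of -3.50 (-4.74 to -2.60) at percentile 29.2. Rtp4, an interferon-induced chaperone for receptors, had 99 and 27 reads and a log2 ratio of 2.04 (1.44 to 2.73) at percentile 71.8. Ifit3, of the same family as Ifit1, had 121 and 5 reads and 4.65 (3.52 to 6.43) at percentile 78.6. The percentiles show that ratios of this size were ordinary among genes with so few reads. Ifit3b, the close copy of Ifit3 on chromosome 19, had 112 and 31 reads, and the pair together had 233 and 36, a log2 ratio of 2.86 (2.37 to 3.43, widened -1.73 to 15.0). Ifit2, of the same cluster and better measured, had 371 and 297 reads and a log2 ratio of 0.51 (0.28 to 0.73, widened -1.90 to 3.05). Reads of the near-identical copies Ifit3 and Ifit3b may have been split by the authors' counting.

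The effectors with the most reads leaned towards Cd11c-lineage. Of 10 with at least 1000 reads, 8 had a log2 ratio below 0, against 51.4% of the 4619 genes of that depth, and their median was -0.41 against -0.02. Scaled to library totals the 10 were all below 0, against 61.7% of genes, and after trend removal the 10 were again all below 0, against 53% of genes, with a median of -0.26 against -0.04. Summed, they had 13897 and 19316 reads, a log2 ratio of -0.29 (-0.32 to -0.26, widened -0.61 to 0.03). The lean was therefore small against the spread between the libraries, and none of the 10 alone had a widened interval clear of 0.

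Within these, the ubiquitin ligases and the enzymes of ADP-ribosylation were all lower in Cd11c-active. Trim25, the ligase that activates the RNA sensor RIG-I, had 932 and 1860 reads and a log2 ratio of -0.81 (-0.93 to -0.70, widened -2.03 to 0.32), at percentile 8.4. Parp9, an ADP-ribosyltransferase, had 924 and 1652 reads and -0.65 (-0.77 to -0.53, widened -1.89 to 0.51), at percentile 12.3. Dtx3l, the ubiquitin ligase that forms a complex with PARP9, had 987 and 1266 reads and -0.17 (-0.29 to -0.05). Parp14, a larger transferase from the same gene cluster on chromosome 16, had 1683 and 2586 reads and -0.43 (-0.52 to -0.34). Trim30a, a ligase that restrains inflammatory signalling, had 1184 and 1831 reads and -0.44 (-0.55 to -0.34). All 5 were on the same side, between percentiles 8.4 and 40.0.

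Summed, these 5 genes had 5710 and 9195 reads, a log2 ratio of -0.50 (-0.55 to -0.45, widened -0.99 to -0.03). This sum was not among the planned results. It was the only role group with a widened interval clear of 0, and no allowance was made for the number of groups summed. Leaving out Parp14, Parp9, Trim25 or Trim30a in turn gave -0.43 to -0.53 with a widened interval that included 0, and leaving out Dtx3l gave -0.56 (widened -1.10 to -0.04). With the trend in length and GC content removed it was -0.39 (widened -0.87 to 0.09). Parp9 and Dtx3l overlap at their starts in RefSeq, and whether strand was used in counting is not given in the sources used here, so reads of the overlap cannot be assigned. Border macrophage markers were higher in the same library as these genes, with the sums given above, and their part was not tested.

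**Figure D3:**
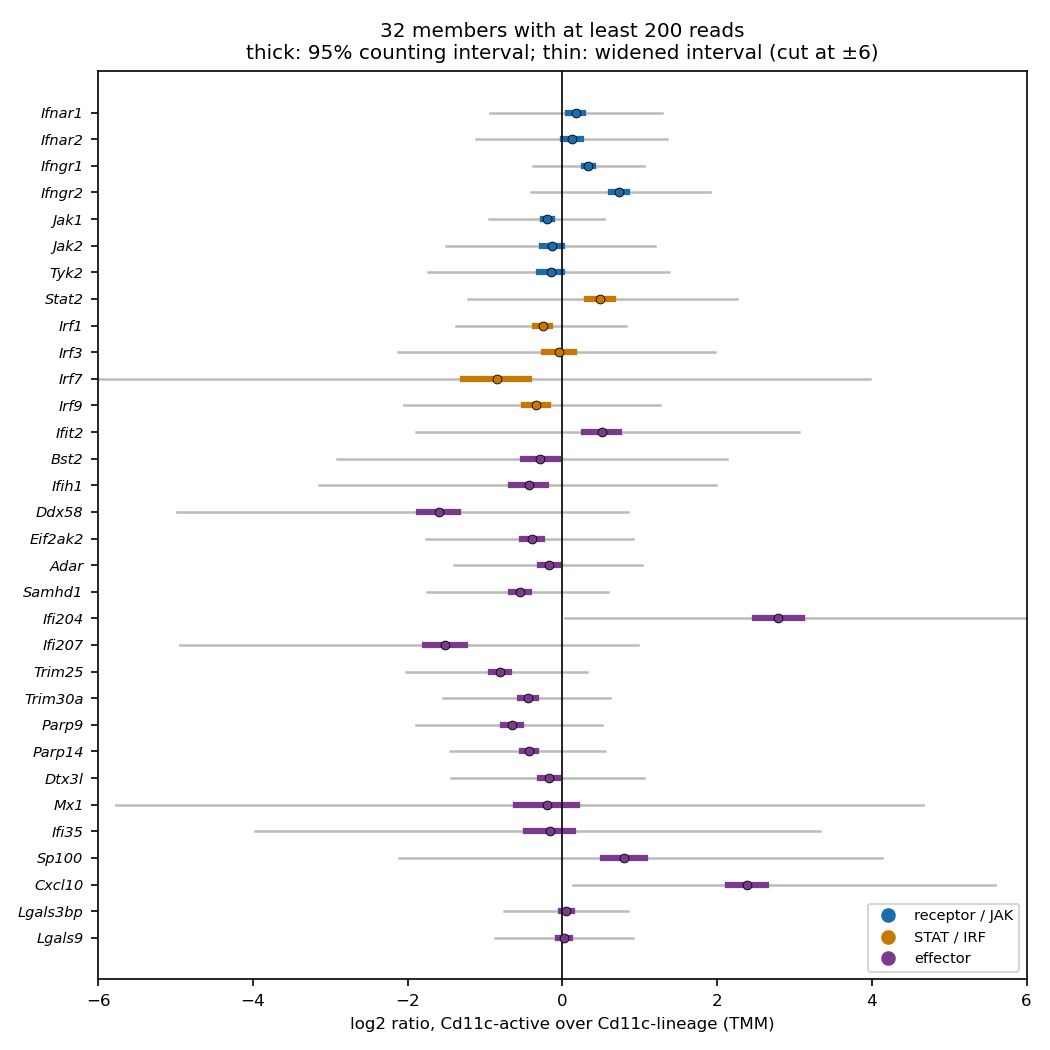
Log2 ratios of the 32 members with at least 200 reads, in the order of their roles, with thick lines for 95% counting intervals and thin lines for widened intervals. Only the thin lines of Cxcl10 and Ifi204 stay clear of 0 (lower ends 0.14 and 0.03), and Trim25, Trim30a, Parp9, Parp14 and Dtx3l lie together on the negative side.

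Of the 8 sensors and editors of nucleic acid, 7 had a log2 ratio below 0, against 49.8% of all genes with at least 20 reads, and the widened interval of their sum included 0. Ddx58, which encodes RIG-I, had 165 and 569 reads and a log2 ratio of -1.60 (-1.86 to -1.35, widened -4.99 to 0.84), at percentile 5.8. Ifih1, which encodes the related sensor MDA5, had 257 and 396 reads and -0.44 (-0.67 to -0.21, widened -3.15 to 1.99). Samhd1, which degrades the nucleotides that viruses need, had 997 and 1655 reads and -0.54 (-0.66 to -0.43, widened -1.75 to 0.59). Ddx58 was the furthest from 0 of these 3, and the widened interval of each included 0.

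Eif2ak2, which encodes the kinase PKR that halts translation on double-stranded RNA, had 818 and 1218 reads and a log2 ratio of -0.39 (-0.52 to -0.26). Adar, which edits double-stranded RNA and so keeps it from the sensors, had 1035 and 1327 reads and -0.17 (-0.29 to -0.05). The 8 genes, Ifi204 and Ifi207 included, summed to 4075 and 5921 reads, a log2 ratio of -0.35 (-0.41 to -0.29, widened -0.92 to 0.21). Ifi204 alone ran against the others of this group.

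Of the remaining effectors, Lgals3bp and Lgals9 had the most reads. Lgals3bp, a secreted glycoprotein that binds galectins, had 2956 and 3255 reads and a log2 ratio of 0.05 (-0.02 to 0.12), and Lgals9, a galectin, had 2381 and 2666 reads and 0.02 (-0.06 to 0.10). Both had high levels per kilobase, 103 and 99.4 CPM for Lgals3bp and 122 and 120 CPM for Lgals9. Both turned below 0 with library totals (-0.09 and -0.11) and with the trend removed (-0.21 and -0.22), so no direction is given for them. Bst2, which tethers budding viruses to the membrane, had 276 and 383 reads and -0.29 (-0.51 to -0.06, widened -2.91 to 2.13).

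Sp100, a component of nuclear bodies, had 289 and 189 reads and a log2 ratio of 0.80 (0.53 to 1.07, widened -2.12 to 4.13). Ifi35, a protein that binds other interferon-induced factors, had 161 and 205 reads and -0.16 (-0.47 to 0.14). Mx1, an antiviral GTPase that the table lists as a polymorphic pseudogene, had 96 and 126 reads and -0.20 (-0.60 to 0.19). The counting intervals of Ifi35 and Mx1 included 0 even without widening.

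**Figure D4:**
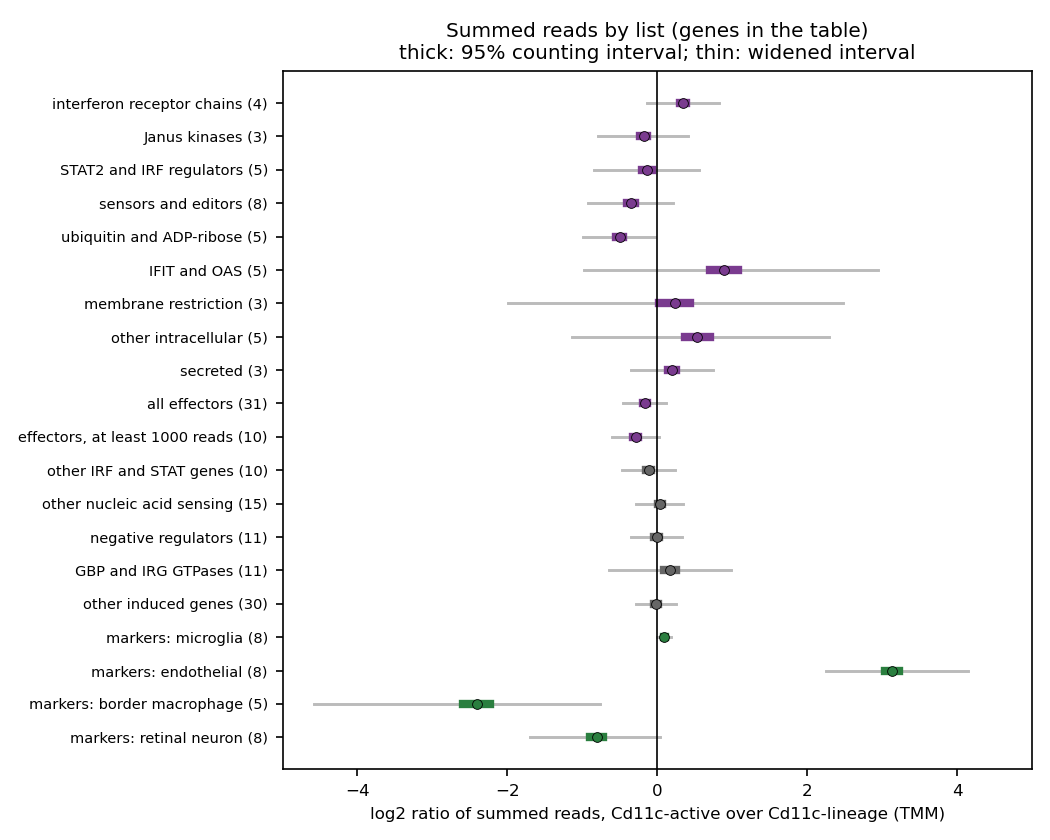
Log2 ratios of summed reads for the role groups (purple), the other pathway lists (grey) and the cell type markers (green), with the number of genes in the table in brackets, thick lines for counting intervals and thin lines for widened intervals. Among the pathway lists only the ubiquitin and ADP-ribose group lies wholly below 0 when widened (-0.99 to -0.03). With the trend in length and GC content removed, its widened interval includes 0 (-0.87 to 0.09). No allowance is made for the number of lists. The endothelial and border macrophage markers lie at 3.13 and -2.41.

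Other genes of the pathway, taken from lists of 129 symbols of which 85 had a row, stood on both sides of 0. Of the 84 with at least 20 reads, 17 were at least 2-fold higher and 18 at least 2-fold lower, near the 23.3% and 21.6% of all genes, and their summed log2 ratio was 0.00 (widened -0.15 to 0.15). None of 11 interferon genes searched, Ifnb1 and Ifng among them, had a row in the table used here.

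Among 10 further STAT and IRF genes, 1 was at least 2-fold higher and 1 lower, against 23.3% and 21.6% of all genes. The one with the most reads, Irf8, which microglia need for their identity, had 5593 and 6929 reads and a log2 ratio of -0.12 (-0.17 to -0.07, widened -0.79 to 0.54). Of 15 genes of nucleic acid sensing, 2 were at least 2-fold higher and 0 lower, against those same shares. Unc93b1, the chaperone of the endosomal Toll-like receptors, had the most reads there, 11027 and 11048, and a log2 ratio of 0.18 (0.15 to 0.22, widened -0.31 to 0.67).

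The 11 negative regulators were level in sum, at -0.01 (widened -0.35 to 0.33), with 1 at least 2-fold higher and 1 lower, against 23.3% and 21.6% of all genes. Ptpn1, a phosphatase acting on Janus kinases, had the most reads, 3732 and 4036, and a log2 ratio of 0.07 (0.01 to 0.14). The guanylate binding proteins and immunity-related GTPases, classical targets of type II interferon, had 3 higher and 4 lower of 10, against the same shares, and a summed log2 ratio of 0.17 (widened -0.64 to 0.98). Gbp7 had the most reads there, 567 and 463, and 0.48 (0.30 to 0.66, widened -1.39 to 2.43).

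Of 30 other induced genes, 4 were at least 2-fold higher and 10 at least 2-fold lower, against 23.3% and 21.6% of all genes with at least 20 reads. Ly6e, a membrane protein with the most reads of the list, had 4123 and 3913 reads and a log2 ratio of 0.26 (0.20 to 0.33, widened -0.57 to 1.10). With at least 1000 reads and past 2-fold were Tap1, a peptide transporter for antigen presentation, at 1555 and 876 reads and 1.01 (0.89 to 1.14), and on the other side Sp140 (210 and 798 reads, -1.74, interval -1.97 to -1.52), Parp10 (383 and 909, -1.06, interval -1.24 to -0.89) and Tor3a (403 and 948, -1.05, interval -1.22 to -0.88). The widened interval of each included 0, and the authors' deposited table, scaled to library totals, gives a log2 fold change of 0.88 for Tap1, short of 2-fold. Of 8 listed paralogs of members, 6 were at least 2-fold higher and 2 lower, against the same 23.3% and 21.6%. All of them had under 1000 reads. The shares were 43.3% and 42.3% at 20 to under 200 reads, and 23.3% and 20.8% at 200 to under 1000. The paralogs summed to 2088 and 1279 reads, with 0.89 as the log2 ratio (widened -0.09 to 1.93). Trim30d, the paralog of Trim30a with the most reads of that list, had 619 and 346 reads and 1.03 (0.83 to 1.22, widened -0.92 to 3.22), on the other side of 0 from Trim30a.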

How the data were processed

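The table deposited by the authors holds 1 column of raw counts for each library, per the file headers. The authors' log2 fold change was used once, and their log2 average CPM was not used. The submitters' processing notes name cutadapt 3.5, STAR 2.7.9a, featureCounts 1.6.3, edgeR 4.0.16 and GRCm39, with no role given. Annotation release, strand setting and handling of multiply matching reads are not given in the sources used here. Libraries were stranded and depleted of ribosomal RNA, per the labels' protocols. No listed gene had under 6 reads in all, and 0 columns belonged to unmapped samples.

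The members and gene lists were chosen with earlier results of these data known. All members are named. Some results for other genes of the pathway are not reported here. Of other pathway lists, the text names the gene with the most reads and those with at least 1000 reads and a log2 ratio of at least 1 in size, and any further name was chosen after its values were seen. Markers of microglia, endothelium, pericytes, erythroid cells, Muller glia, retinal neurons, dendritic cells, border macrophages, and monocytes with neutrophils were summed.

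Reads were scaled with TMM factors (edgeR 4.0.16, R 4.3.3), 0.5 reads were added for single ratios, and genes with 20 reads over both libraries were kept. Intervals are exact Clopper-Pearson at 95%. No test of edgeR or DESeq2 could be fitted with 1 library per group. Overdispersion was taken as 85.3 below 1600 reads, 87.6 from 1600, 107 from 3200 and 152 from 6400, weighted by reads for sums. It takes the typical gene as equal in both libraries. No molecular identifiers are named in the labels, so reads may not be independent, and intervals and floors cover counting error only. The floor of 3 reads for a count of 0 is 0.243 CPM (Cd11c-active) or 0.214 CPM (Cd11c-lineage). Lengths and GC content are those of the longest GENCODE M21 transcript, matched for 13499 genes (99.6%). The procedure was tested on simulated data. Alternatives were library totals, DESeq2 1.42.0 size factors, scaling without ribosomal, mitochondrial and 7SK or 7SL genes, trend removal, other read minimums and 5 added reads.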

Additional observations from a re-analysis of the deposited data

How the results depend on the processing

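No paired analysis was possible because each group has 1 library, so no replicate could be left out either. Library totals moved the summed log2 ratio of receptors and kinases from 0.13 to -0.0069, of regulators from -0.14 to -0.27 and of effectors from -0.17 to -0.30 (widened -0.59 to -0.02), each by the shift that scaling gives all genes. With the trend in length and GC content removed, regulators were at -0.28 and effectors at -0.20. Without the member with the most reads, receptors and kinases were at 0.032, regulators at -0.020 and effectors at -0.21. Chosen after seeing the data, the effector sum was -0.27 without Cxcl10 and Ifi204 and -0.25 without Lgals3bp and Lgals9. Of effectors, 5 were at least 2-fold higher and 3 lower at a minimum of 100 reads, and 2 and 2 at 500 reads, against 9 and 6, where fewer genes enter (24 and 17 of 31). The counts stayed at 9 and 6 under the other scalings, trend removal, no minimum and 5 added reads. DESeq2 size factors and scaling without ribosomal, mitochondrial and 7SK or 7SL genes changed the sign of 0 of 43 members, and library totals and trend removal that of 3 each.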

Other observations

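Markers of other cells that were not described above are given as values, and the widened interval of each list's sum included 0. Of the 10 retinal neuron and photoreceptor markers, 8 had a row and 7 had a log2 ratio below 0, against 49.8% of all genes with at least 20 reads. Their summed reads were 1589 in Cd11c-active and 3163 in Cd11c-lineage (log2 ratio -0.81, widened -1.70 to 0.04). The monocyte and neutrophil markers S100a8, S100a9 and Plac8 had 0 reads in Cd11c-active and 39, 67 and 133 in Cd11c-lineage, at least 11.4-fold, 19.6-fold and 39.0-fold lower. Ccr2, the other gene of that list with a row, had 35 and 0 reads, and the list summed to 35 and 239 reads (log2 ratio -2.57, widened -15.0 to 2.02). Of the dendritic cell markers, Zbtb46, a factor that endothelium also expresses, had 200 and 0 reads, and Tcf4 was on the other side with 1579 and 2904 (-0.69, widened -1.72 to 0.28). Both together were at -0.52 (widened -1.49 to 0.41), and Flt3, Xcr1, Cd209a and Ccr9 had no row in the table used here. The Muller glia and astrocyte sum was 27940 and 33935 reads (-0.09), nearly all of it Glul. Slc1a3 had 73 and 642 reads (-2.94, widened -9.20 to 0.13) and Rlbp1 had 94 and 0 reads, at least 35.7-fold higher. Of the erythroid markers Hbb-bt alone had a row, with 0 and 31 reads.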
